A study of Mus musculus with 8 samples.

Results

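Nfil3 lies on the minus strand of mouse chromosome 13 (mm10 chr13:52967209-52982878), and 41 of the 259446 regions in which C/EBPα peaks were called lay within 100 kb of it. A region is the union of the peaks of 6 peak lists that overlapped by at least 1 bp, and a region was taken when any of it fell within 100 kb of the gene body. The members were thus chosen by the peak calls of the same 6 libraries, so call counts are given as a description. Of the 41 regions, 7 were called in all 6 libraries (9.05% of all regions were), and genotypes were compared at these 7.

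NFIL3, also called E4BP4, is a basic leucine zipper factor that mostly acts as a repressor and reads DNA sites that the PAR bZIP activators DBP, TEF and HLF also read. Natural killer cells, other innate lymphoid cells and cDC1, the type of dendritic cell specialised in cross-presentation, need Nfil3. In progenitors that choose the cDC1 fate it represses Zeb2, at an enhancer where C/EBP factors bind sites of a similar kind. C/EBPα, itself a bZIP factor, drives myeloid fates, and its binding around Nfil3 concerns the upstream end of that circuit.

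C/EBPα was profiled by CUT&RUN, in which a nuclease tethered by an antibody releases the DNA beside a bound protein, in mouse bone marrow progenitors sorted as Lin- KIT hi-int FLT3+. The groups were DC, DE and WT, which the labels give as variants of the Zeb2 -165 kb enhancer, with 2 anti-C/EBPα libraries each. Batch 1 and batch 2 of the labels each held 1 library per genotype, and a further 2 IgG libraries from WT cells were not analysed here, so no background was measured in them. The labels do not spell out the DC and DE alleles, give no age, treatment or pooling, and do not say whether batches held separate animals, so p-values measure the spread between these libraries.

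Read totals were not at hand, so depth is unknown. The unit used below is the pileup, the number of fragments over a peak summit, computed back from the fold and p-value that the authors deposited. Scaled pileup is that number divided by a factor for each library, set so that the median region of the 23480 called in all libraries is level. The libraries held between 50221 and 169943 peaks, and DC batch 1 stood apart with the most. Binding data hold no expression, so the sort gate could not be checked by mRNA. Kit and Flt3 each had a region called in all libraries within 10 kb, as had 2 of 8 loci of other lineages (Itgam and Klrb1c). Over all protein-coding genes 50.5% had one, so these calls do not check the gate either. The Kit region was weak, with pileups of 9 to 19 fragments.

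Promoter windows of 300 bases, 250 before and 50 after a transcription start, show what DNA lay under the regions next to Nfil3. They are RefSeq sequences of mm10. The windows are those of Nfil3 (chr13:52980990-52981289, minus strand), of the long non-coding RNA Gm33424 upstream of it (chr13:52985715-52986014, plus strand) and of the downstream neighbour Auh, an RNA-binding enoyl-CoA hydratase (chr13:52929628-52929927, minus strand). Each overlaps a region described below, and capitals mark every match to the motifs listed after them.
Nfil3: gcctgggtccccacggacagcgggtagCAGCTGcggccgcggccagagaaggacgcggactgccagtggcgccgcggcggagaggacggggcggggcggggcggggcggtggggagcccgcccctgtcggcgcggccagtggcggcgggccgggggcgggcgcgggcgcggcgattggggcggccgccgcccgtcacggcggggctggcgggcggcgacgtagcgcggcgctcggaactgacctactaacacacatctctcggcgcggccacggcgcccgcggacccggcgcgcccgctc
Gm33424: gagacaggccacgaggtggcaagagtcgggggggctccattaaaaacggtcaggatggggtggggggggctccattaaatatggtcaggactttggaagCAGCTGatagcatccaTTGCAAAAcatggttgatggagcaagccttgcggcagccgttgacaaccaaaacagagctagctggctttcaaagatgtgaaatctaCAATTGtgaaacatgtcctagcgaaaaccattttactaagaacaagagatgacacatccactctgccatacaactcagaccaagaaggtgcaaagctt
Auh: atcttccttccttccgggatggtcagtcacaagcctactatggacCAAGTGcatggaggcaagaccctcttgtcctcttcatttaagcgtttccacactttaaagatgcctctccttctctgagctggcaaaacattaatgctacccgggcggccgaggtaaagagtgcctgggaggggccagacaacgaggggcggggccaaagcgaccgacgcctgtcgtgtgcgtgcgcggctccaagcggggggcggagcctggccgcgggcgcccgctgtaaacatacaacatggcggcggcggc

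Neither the C/EBP palindrome TTGCGCAA, its looser form TTGCNNAA (which includes it), nor the NFIL3 and PAR bZIP sites TTACGTAA and TTATGTAA matched the Nfil3 window on either strand. Of 21263 promoter windows, 0.221% held TTGCGCAA, 10.2% TTGCNNAA, 0.136% TTACGTAA and 0.894% TTATGTAA. The only capitals in the Nfil3 window are an E-box, the CANNTG motif of E proteins, with the letters CAGCTG at chr13:52981257-52981262. An E-box stood in 69.0% of promoter windows. In the Gm33424 window the run TTGCAAAA at chr13:52985830-52985837 matched the looser C/EBP form, next to the E-boxes CAGCTG and CAATTG. The Auh window held the E-box CAAGTG alone. GC content was 81.7% in the Nfil3 window, 48.3% in that of Gm33424 and 60.7% in that of Auh, against a median of 56.3% over all windows. A match is a description of letters and no evidence of a bound site.

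The region over the Nfil3 start site (chr13:52980141-52982151) was 2011 bp wide, against a median of 435 bp for regions called in all libraries, of which 0.068% were as wide. Its main summit lay 280 and 263 bp upstream of the start in DC, 294 and 281 bp in DE and 280 and 273 bp in WT (batch 1, then batch 2). The 6 summits fell within 31 bp of one another, against a median spread of 67 bp over such regions. They lay 13 to 44 bp beyond the upstream edge of the printed window, and 40 to 71 bp from its E-box CAGCTG, so the bases at the summit itself are not among those shown.

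The start-site region was made of several peaks in each library. A smaller peak downstream of the start, 417 to 431 bp into the gene, was called separately in DC, in DE batch 1 and in WT. Its scaled pileup was 29.3 and 32.5 in DC, 27.0 in DE batch 1, and 24.4 and 56.1 in WT. In DE batch 2 the main peak reached down to that stretch and the nearest separate summit lay 658 bp downstream. The values for the region below are those of the main summit.

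At the main start-site summit the pileup was 205 and 63 fragments in DC, 80 and 99 in DE, and 170 and 142 in WT. Scaled, this was 128 and 97.4 in DC, 67.5 and 113 in DE, and 173 and 150 in WT. Both DC and both DE libraries were lower than both WT libraries, and DC and DE overlapped each other. The local background that the authors' peak caller used was 4.2 and 0.96 fragments in DC, 4.74 and 1.06 in DE, and 4.51 and 2.35 in WT. It was thus higher in batch 1 than in batch 2 in every genotype, as was the smallest background of each library anywhere. That smallest background was 1.11 and 0.368 in DC, 1.53 and 0.408 in DE, and 1.33 and 0.902 in WT. The sources used here do not say whether the peak caller took this background from the IgG libraries or from each library's own surroundings, which also bears on the fold. In batch 2 the backgrounds of DC, DE and WT stood in similar proportions here and at 2 regions described below. They were 0.971, 1.09 and 2.29 at 1.84 kb upstream, and 5.5, 6.16 and 12.97 at 4.19 kb downstream. The proportions differed at other regions, with 2.59, 0.873 and 7.63 at 4.82 kb upstream and 0.394, 0.437 and 1.53 at 66.4 kb downstream. Whether the backgrounds of the genotypes within a batch are separate measurements was not tested.

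The annotated 5′ end of Nfil3 lies 1.84 kb upstream of that start, and a second region (chr13:52982633-52983157) spanned it, with its summit also 1.84 kb upstream of the start. Pileup there was 188 and 79 in DC, 85 and 101 in DE, and 87 and 118 in WT, and scaled pileup was 117 and 122 in DC, 71.7 and 115 in DE, and 88.5 and 125 in WT. DC lay within the range of WT, and DE batch 1 was the lowest library. A further region (chr13:52985238-52986544) lay 4.82 kb upstream and overlapped the start of Gm33424. Its scaled pileup was 113 and 176 in DC, 106 and 147 in DE, and 109 and 143 in WT. Batch 2 was higher than batch 1 in all genotypes, and the genotypes overlapped. The TTGCAAAA run of the Gm33424 window lay 15 to 21 bp from the summit in 4 libraries, 69 bp in DC batch 1 and 272 bp in DE batch 2, whose summit was at another position.

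Inside the gene, a region 4.19 kb downstream of the start (chr13:52976289-52977143) had a pileup of 185 and 83 fragments in DC, 72 and 115 in DE, and 89 and 76 in WT. Scaled pileup was 115 and 128 in DC, 60.7 and 131 in DE, and 90.6 and 80.5 in WT. Both DC libraries were higher than both WT libraries, while DE held the lowest and the highest of the 6 values. The authors' fold over local background was 88.1 and 12.9 in DC, 28.8 and 16.2 in DE, and 38.6 and 5.51 in WT. The fold was lower in batch 2 in every genotype, with a local background of 5.5, 6.16 and 12.97 in DC, DE and WT in batch 2. In batch 1 the background was 1.11, 1.53 and 1.33, which is the smallest background of each of those libraries. Whether these backgrounds are separate measurements was not tested, so the genotypes may not be separate observations of this batch difference. A weaker intragenic region, 8.2 kb downstream (chr13:52972712-52973018), was called in both DC libraries (pileup 14 and 14), in DE batch 1 (23) and in WT batch 2 (8).

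The strongest region of the neighbourhood was not at Nfil3 but 66.4 kb downstream of its start, inside Auh (chr13:52914389-52915073). Pileup there was 319 and 117 in DC, 305 and 169 in DE, and 260 and 170 in WT, and scaled pileup was 199 and 181 in DC, 257 and 193 in DE, and 265 and 180 in WT. Batch 1 was higher in every genotype, and the genotypes overlapped. By the authors' fold it ranked 268 and 65 among the regions called in DC, 97 and 48 in DE, and 102 and 99 in WT. Nearness does not assign it to Nfil3 or to Auh. A weaker region 88.9 kb downstream, also in Auh (chr13:52891908-52892521), had scaled pileups of 43.0 and 29.4 in DC, 35.4 and 58.2 in DE, and 32.6 and 36.0 in WT. On the other side of the gene a region 43.4 kb upstream, between genes (chr13:53024333-53024574), had 24.3 and 20.1 in DC, 16.0 and 14.8 in DE, and 22.4 and 23.3 in WT. DE was lower there than both other genotypes in scaled pileup. Unscaled, it was 39 and 13 in DC, 19 and 13 in DE, and 22 and 22 in WT, so DC and DE were level in batch 2. Over all regions called in all libraries, DE was lower without overlap than WT at 16.1% and than DC at 15.1%.

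**Figure D1:**
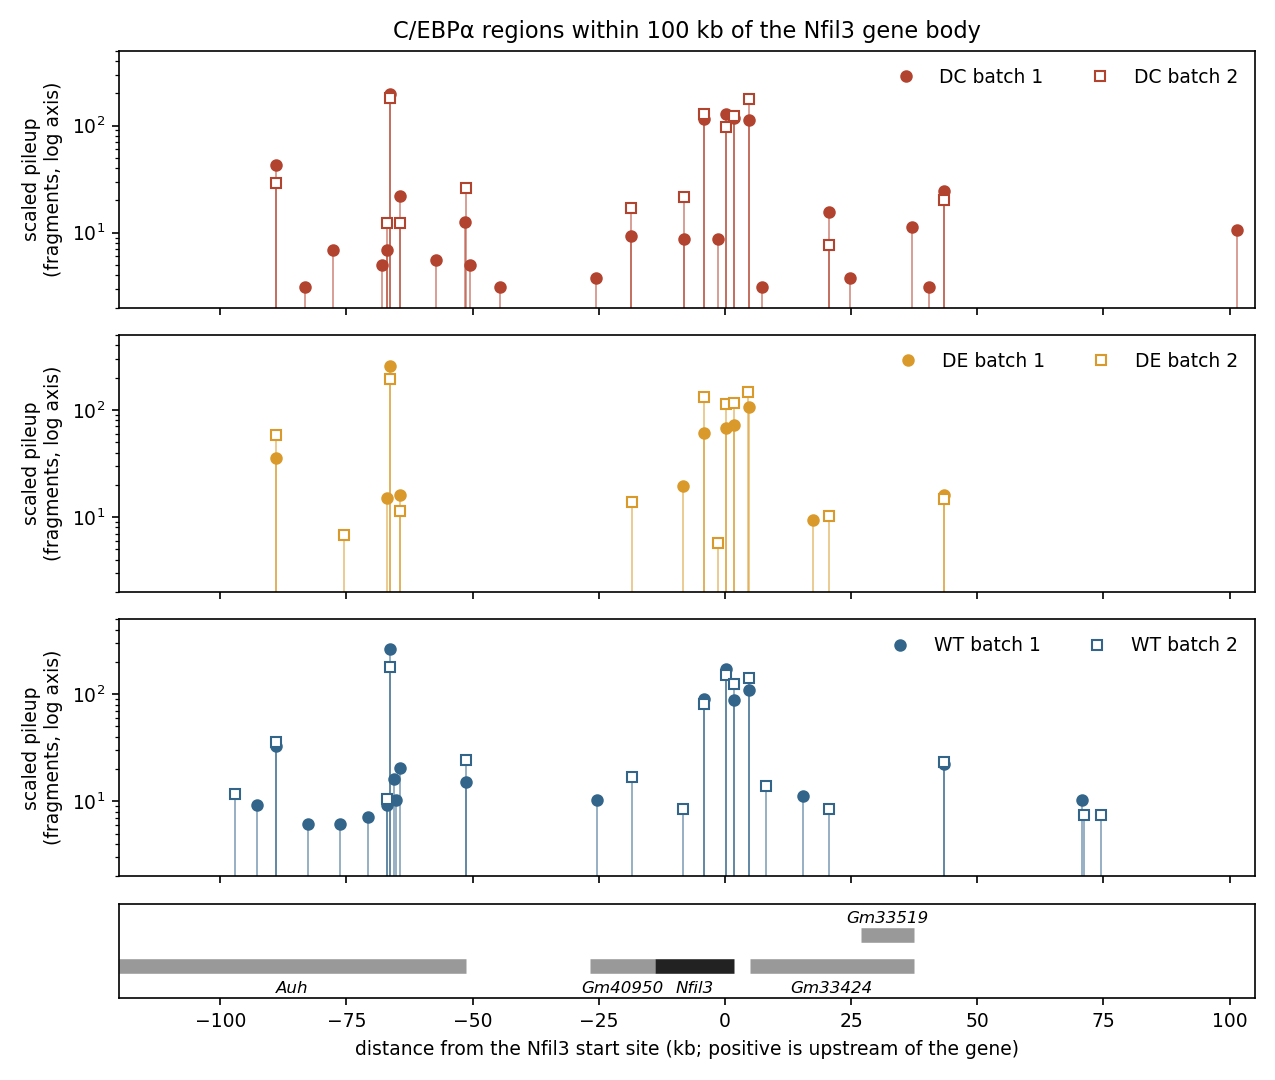
Scaled pileup (fragments, log axis) of every called region against the distance of its summit from the Nfil3 start in kb, positive upstream, for DC, DE and WT, with batch 1 as filled circles and batch 2 as open squares. Bars in the lowest panel are genes, and Auh runs on beyond the left edge. The regions called in all libraries stand out near the start and 66.4 kb downstream, where scaled pileup lay between 180 and 265.

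Other regions were weak and called in part of the libraries. The region at the start of Auh (chr13:52929466-52929765), whose promoter window is printed above, was called in both DC libraries with a pileup of 20 and 17, in no DE library, and in both WT libraries with 15 and 23. It was the only member called in both WT and neither DE library, which held for 0.638% of all regions. It was also the only one called in both DC and neither DE library, against 1.02% of all regions. A missing call is not a pileup of 0: the smallest pileup called anywhere was 7 and 4 fragments in DE, and the local background at this region was 1.57 and 2.27 in DC and 3.95 and 5.34 in WT. No member was called in both libraries of a variant and neither of WT (1.52% of all regions for DC, 0.846% for DE), or in both WT and neither DC library (0.39%), or in both DE and neither DC library (0.276%).

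Around the strongest region, a region at chr13:52914118-52914338 was called in every library but DE batch 2, with pileups of 11 and 8 in DC, 18 in DE batch 1, and 9 and 10 in WT. One at chr13:52916457-52916814 was called in every library but WT batch 2, with 35 and 8 in DC, 19 and 10 in DE, and 20 in WT batch 1. In the long non-coding RNA Gm40950, which lies just downstream of Nfil3, chr13:52962484-52962610 had a pileup of 15 and 11 in DC, 12 in DE batch 2 and 16 in WT batch 2. In Gm33424, chr13:53001526-53001818 had 25 and 5 in DC, 9 in DE batch 2 and 8 in WT batch 2. These 4 regions and that at the start of Auh complete, with the intragenic one 8.2 kb downstream and the 7 called in all libraries, the 13 members called in both libraries of at least 1 genotype.

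Of the other members, 1 was called in 2 libraries and 27 in a single one, as were 5.38% and 76.7% of all regions. The 27 had pileups of 5 to 18 fragments with a median of 8, and 12 of them came from DC batch 1, 3 from DE and 12 from WT. Among single-library regions of the whole genome, 56.9% came from DC batch 1. Counting all 41 members, 26 and 13 were called in DC, 11 and 12 in DE, and 19 and 16 in WT. That is 63.4% and 31.7% in DC, 26.8% and 29.3% in DE, and 46.3% and 39.0% in WT, against 64.6% and 18.7% of all regions in DC, 19.8% and 21.5% in DE, and 30.9% and 21.4% in WT. Both DC libraries called 13 members, both DE libraries 8 and both WT libraries 9, against 14.0% of all regions for DC, 12.9% for DE and 12.1% for WT. Both DC libraries held 9 and both DE libraries 7 of the 9 members called in both WT libraries, where 81.8% of all such regions were held in DC and 82.7% in DE. By position, 17 members lay in Auh, 6 in Nfil3, 10 in long non-coding RNA genes and 8 between genes.

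At the edges of the window, the outermost members were weak and called in 1 library. On the downstream side the last member inside lay 83.1 kb from the gene body (WT batch 2, pileup 11) and the first region outside 114 kb (DE batch 2, pileup 9). On the upstream side these were at 99.6 kb (DC batch 1, pileup 17) and 104 kb (DC batch 1, pileup 7).

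The first comparison asks whether the variants of the Zeb2 enhancer were accompanied by other C/EBPα binding at Nfil3, a gene on another chromosome than that enhancer. The 2 comparisons with WT share the WT libraries and are not independent. At the start-site region the mean scaled pileup was 113 in DC, 90.3 in DE and 162 in WT. For DE minus WT the log2 difference was -0.89 ± 0.24 (SE) in the limma fit with batch as a term, with an adjusted p of 0.0355 over all 23480 regions. Without the batch term the difference was the same, its SE was 0.33, its 95% interval ran from -1.61 to -0.16 and its adjusted p was 0.994. DC minus WT was -0.53 at the same place, with an interval of -1.01 to -0.05 with the batch term and an adjusted p of 0.229 (0.767 without it).

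**Figure D2:**
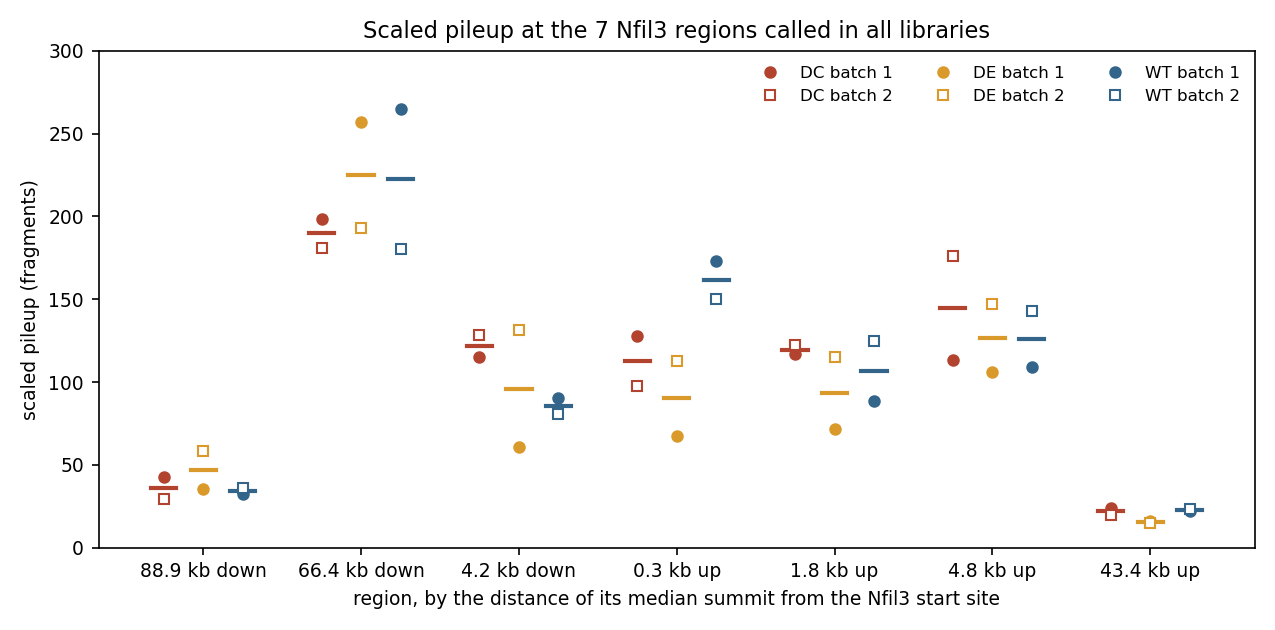
Scaled pileup (fragments, linear axis) at the 7 regions called in all libraries, placed by the distance of the median summit from the Nfil3 start. Circles are batch 1, squares batch 2 and bars the mean of 2 libraries. At 0.3 kb upstream the DC (128 and 97.4) and DE (67.5 and 113) libraries all lie below the WT libraries (173 and 150).

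With batch as a term, 1 of the 7 Nfil3 regions fell in DE and none rose, where 0.264% of all tested regions fell and 1.12% rose in DE. In DC none of the 7 passed in either direction, against 1.17% that fell and 3.15% that rose. At an unadjusted p under 0.05 the limma fit with the batch term had 1 of 7 in DE and 2 of 7 in DC, beside 2814 of all 23480 regions in DE and 3986 in DC. Without the batch term none of the 7 passed in either comparison (0.0% of all regions), with 1 in DE and none in DC at an unadjusted p under 0.05 (4.87% of all regions in DE and 7.99% in DC). In scaled pileup DE did not overlap WT at 2 of 7 regions, lower in both, which held for 16.1% of all regions tested. DC did not overlap WT at 1 region that was lower (16.8% of all regions) and at 1 that was higher (17.2%), the intragenic one 4.19 kb downstream. That region had a DC minus WT difference of 0.51 (0.01 to 1.01 with the batch term, adjusted p = 0.286). The 6 regions other than that at the start site had DE minus WT differences from -0.57 to 0.41.

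**Figure D3:**
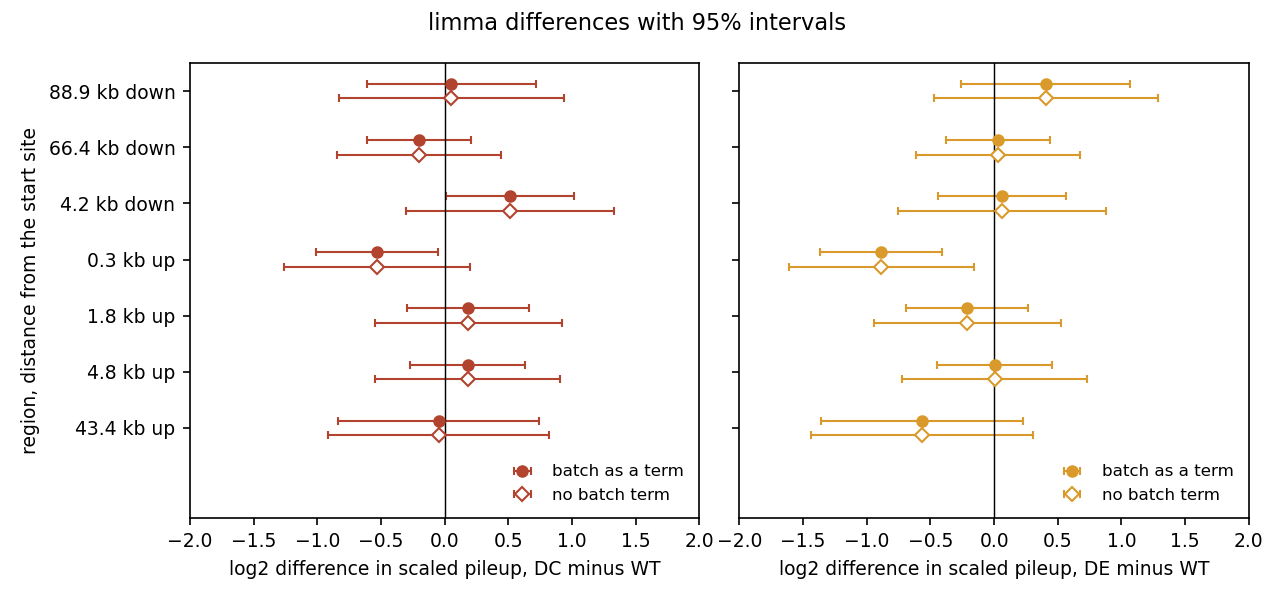
log2 difference in scaled pileup with its 95% interval from limma at the 7 regions, DC minus WT on the left and DE minus WT on the right, with batch as a term (filled) and without it (open). Regions run from 88.9 kb downstream at the top to 43.4 kb upstream at the bottom. The interval of -0.89 for DE at 0.3 kb upstream excludes 0 in both fits, but its adjusted p passed only with the batch term.

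The call at the start-site region was lost when any 1 of 5 libraries was left out. Without DE batch 1, the lowest library there, the DE minus WT difference was -0.36 with an adjusted p of 0.653, and without WT batch 1 it was -0.68 (0.410). Without WT batch 2 it was -1.08 (0.0901), without DC batch 1 -0.88 (0.0836) and without DC batch 2 -0.89 (0.0708). Only without DE batch 2 did it pass, at -1.41 (0.00474). Within batch 1 the DE to WT ratio was 0.390 (95% interval 0.295 to 0.512), and 1.05% of the 30765 regions compared had a ratio as low. Within batch 2 it was 0.752 (0.575 to 0.978), and 27.9% of 35800 regions were as low. For DC to WT the ratios were 0.738 (0.599 to 0.910) in batch 1 and 0.648 (0.473 to 0.877) in batch 2, with 30.3% and 14.0% of regions as low. These intervals come from the exact binomial distribution of 2 pileups and cover counting error only.

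Scaling each library by its smallest local background, the floor, in place of the median region moved the median of all regions by 0.55 for DE minus WT and by 0.86 for DC minus WT. On that scale the start-site difference was -0.33 in DE and 0.33 in DC, so the DC direction turned. The ratio of DE to WT was 0.409 (0.309 to 0.536) in batch 1 and 1.54 (1.18 to 2.01) in batch 2 on that scale, so the DE direction turned in batch 2. The fitted DE difference kept its sign, but its 95% interval on the floor scale was -1.58 to 0.92 with the batch term. No direction that holds on both scales is therefore given for DC, or for DE in batch 2. Which scale is right cannot be told from peak lists.

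The strongest region, in Auh, did not differ detectably. DE to WT ratios were 0.972 (0.821 to 1.15) in batch 1 and 1.07 (0.861 to 1.33) in batch 2. DC to WT ratios were 0.751 (0.636 to 0.888) in batch 1 and 1.01 (0.787 to 1.28) in batch 2. Only the DC ratio of batch 1 had an interval without 1, and with the batch term DC minus WT was -0.20 (-0.61 to 0.21). The region at Gm33424 had ratios whose intervals included 1 in both batches and both variants, and its log2 differences were 0.18 (-0.27 to 0.63) in DC and 0.00 (-0.45 to 0.45) in DE. Added over the 7 regions, scaled pileup was 739 and 755 in DC, 615 and 773 in DE, and 780 and 738 in WT, with DE batch 1 the lowest and the other 5 libraries close together.

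DC and DE, compared without WT, had no difference that passed at any of the 7 regions by limma, with none at an unadjusted p under 0.05 in either fit, where 8.19% of all regions were with the batch term and 2.38% without it. Over all regions with the batch term, 0.00852% were higher and 0.0213% lower in DC than in DE. At the start-site region DC minus DE was 0.35 (-0.13 to 0.83, adjusted p = 0.764), so a difference of either sign up to those bounds is not excluded by these libraries. The ratio of DC to DE there was 1.89 (1.45 to 2.48) in batch 1 and 0.862 (0.618 to 1.19) in batch 2, on opposite sides of 1. In scaled pileup DC was higher than DE without overlap at 2 of the 7 regions, 1.84 kb and 43.4 kb upstream (15.1% of all regions), and lower at none (15.2%).

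Nfil3 carried more regions than the median gene, most clearly from its 5′ side into the gene body. Within 10 kb of the gene body it had 4 regions called in all libraries, where the median protein-coding gene had 1 and 4.18% of 21900 genes had more. In the 100 kb window it had 7, against a median of 3, and 21.4% of genes had more. Counting regions of any library, 36.3% of genes had more than its 41 within 100 kb. Its strongest region within 10 kb, that at Gm33424, had a mean scaled pileup of 133. A stronger one was found for 7.50% of all genes, which is 1642 of the 11054 genes that had such a region. An overlap of the promoter window by a region called in all libraries, as at Nfil3, was found for 25.1% of 17492 protein-coding genes.

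**Figure D4:**
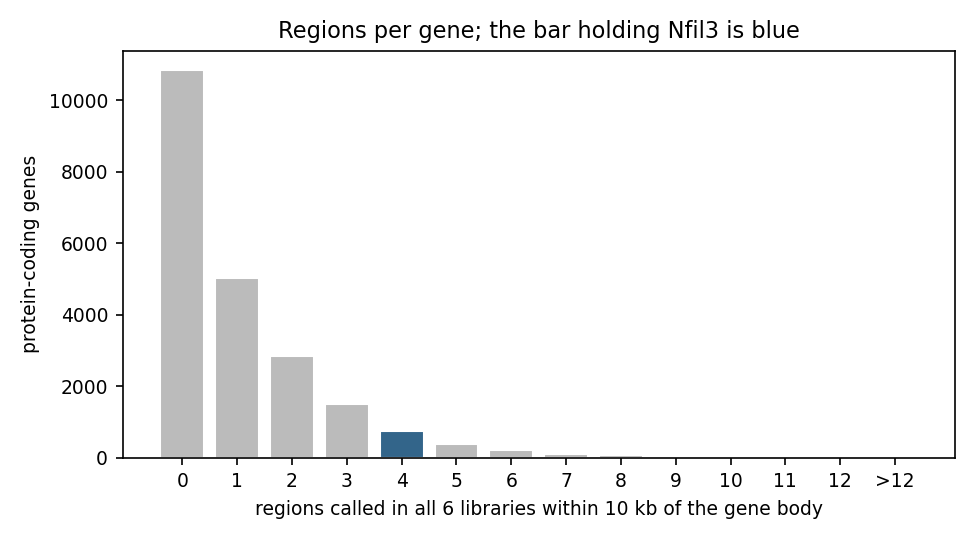
Number of protein-coding genes (y axis) by the number of regions called in all 6 libraries within 10 kb of the gene body (x axis). The blue bar holds the 751 genes with 4 such regions, Nfil3 among them, and 10846 genes had none.

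Genes that act with Nfil3 were read by their strongest region called in all libraries within 10 kb, for lists of cDC1 factors, of clock and PAR bZIP genes, and of genes of innate lymphocytes. Of 14 cDC1 genes, 12 had such a region, among them Zeb2 and Cebpa; Id2, the E protein inhibitor, and Irf8 had none. Of 12 clock and PAR bZIP genes, 11 had one, Clock being the exception, and 5 of 10 innate lymphoid genes had one (Tox, Ets1, Gata3, Rora and Zbtb16). Over all protein-coding genes 50.5% had one.

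Per2, a repressor of the circadian clock, had the one listed region that rose in both variants with batch as a term (chr1:91437602-91438252). Its scaled pileup was 84.1 and 116 in DC, 86.9 and 107 in DE, and 45.8 and 50.9 in WT. All 4 variant libraries were higher than both WT libraries. Over all regions tested, DC was higher than WT without overlap at 17.2% and DE was at 16.1%. The log2 difference was 1.03 ± 0.26 (SE) in DC (limma, adjusted p = 0.0078) and 1.00 ± 0.26 in DE (0.0231), with shared WT libraries. Without the batch term the adjusted p was 0.403 in DC and 0.953 in DE, and with the batch term the DE call was lost without any 1 of the 6 libraries, with adjusted p from 0.0572 to 0.286. The DC call was lost without either DC library or without WT batch 2 (adjusted p 0.136, 0.340 and 0.182).

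In DC, the strongest such region of Batf3, the cDC1 factor that sustains Irf8, fell, and one in Zbtb16, which encodes PLZF, rose. The Batf3 region, 2.17 kb from the gene, had scaled pileups of 28.7 and 23.2 in DC, 55.7 and 33.1 in DE, and 60.0 and 74.2 in WT. DC was lower than both other genotypes, with a DC minus WT difference of -1.37 ± 0.32 (SE, limma with the batch term, adjusted p = 0.0036). Over all regions tested, DC was lower without overlap than WT at 16.8% and than DE at 15.2%. The Zbtb16 region had 197 and 212 in DC, 162 and 147 in DE, and 148 and 91.1 in WT, and its DC minus WT difference was 0.82 ± 0.22 (adjusted p = 0.0159). Both calls were lost without either DC library or without WT batch 2, with adjusted p up to 0.333 for Batf3 and 0.606 for Zbtb16, and without the batch term (0.333 and 0.521). With floor scaling and the batch term none of these calls of Per2, Batf3 and Zbtb16 passed (limma, adjusted p from 0.0705 to 0.568). That scaling moves all regions of a comparison with WT up by the same amount, so the rises at Per2 and Zbtb16 could not turn. The Batf3 difference in DC, which could have turned, was -0.51.

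No other listed gene passed in either variant at the region read, the strongest of each gene. Weaker regions of the listed genes were not looked up, although Rora had 9 and Flt3 7 regions called in all libraries within 10 kb. With the batch term, the cDC1 list had none higher and 1 lower of 12 in DC and none in DE, where 3.15% of all regions were higher and 1.17% lower in DC, and 1.12% higher and 0.264% lower in DE. The clock and PAR bZIP list had 1 of 11 higher in each variant, and the innate lymphoid list had 1 of 5 higher in DC and none in DE. Median log2 differences were 0.03 in DC and 0.04 in DE for the cDC1 list, 0.04 in DC and 0.07 in DE for the clock and PAR bZIP list, and 0.40 in DC and 0.41 in DE for the innate lymphoid list, against -0.02 in DC and -0.00 in DE over all regions.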

How the data were processed

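Per the submitters' processing notes the build was mm10 and the tools included MACS2 2.2.9.1, HOMER, Bowtie2, SAMtools and Trimmomatic; which step each did is not given in the sources used here. Every anti-C/EBPα library has a deposited peak list named with a q of 0.1. For each peak the authors deposited a ratio (the fold of the summit over local background), a -log10 p-value, a -log10 q-value and a score, which holds the q-value column in coarser form. The merged table that the authors deposited gives coordinates and one constant column of no unit, not used here.

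Merging used pandas 2.3.3 and numpy 2.4.6 under Python 3.11.15, and gave the same 259446 regions as the deposited merged table. The pileup k and the local background λ were solved together from the deposited fold, (k + 1)/(λ + 1), and from the p-value, a Poisson tail (scipy 1.17.1; tolerance 5% of the step between whole numbers). Between 99.986% and 99.994% of the peaks of a list were solved. Scaled log2 pileups of the regions called in all libraries were compared with R 4.3.3 and limma 3.58.1, without and with batch as a term. The variance was trended, and p-values were adjusted by Benjamini-Hochberg over 23480 regions (threshold 0.05). The pileup solution and the fits were tested on simulated data. The simulated batches did not differ, so the fit with the batch term was not tested on a batch difference. Batch is a pairing by the labels, and batch deviations correlated across regions with r of 0.548 between DC and WT, 0.415 between DE and WT and 0.384 between DC and DE. Ratios within a batch have exact binomial 95% intervals.

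Members, gene lists and motifs were chosen with earlier results of these data known. Named regions are those called in both libraries of at least 1 genotype. Named genes are the listed ones and the 5 with the highest r. Gene positions, promoter windows and their sequences came from RefSeq tables of mm10; no genome was at hand. Alternatives were other scalings, filters, thresholds, windows and leaving out each library.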

Additional observations from a re-analysis of the deposited data

How the results depend on the processing

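With the replicate block, which pairs libraries by the batch number of the labels, 1 of the 7 Nfil3 regions passed for DE minus WT, against 0 without it, and the block changed no other call at these regions. Quantile normalization with the block also gave 1 (the start-site region, adjusted p = 0.0234), while floor scaling with the block (-0.33, 0.807) and the 4 libraries compared with the block (-0.87, 0.0862) gave 0. Leaving out 1 library in turn gave 0 to 1. The count stayed at 0 for DC minus WT and DC minus DE under all settings tried, with and without the block. Quantile normalization, the block with quantile normalization, floor scaling or the 4 libraries compared, a constant prior variance, a mean pileup of at least 20 and a stricter peak threshold (-log10 q of at least 2) were among them. The combinations with the block, other than leaving out libraries, were chosen after seeing the data.

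Counts of called regions follow the window. Within 10 kb, 6 were called in both DC, 4 in both DE and 4 in both WT libraries, of 10 in all. Within 50 kb it was 5 for DE, of 22 in all, and it was higher for WT and highest for DC, the same order as within 100 kb. Within 200 kb it was 24 in DC, 16 in DE and 16 in WT, of 75 in all. With 1 batch alone the counts were 13 to 26 in DC, 11 to 12 in DE, 16 to 19 in WT and 19 to 35 in all. Floor scaling moved the ratios at the strongest region, in Auh: DE to WT in batch 2 was 2.199, DC to WT was 1.47 in batch 1 (turned to above 1) and 1.69 in batch 2, and DC to DE in batch 1 was 1.44 (turned). The cause was not tested.

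The libraries are 2 per genotype, batch and genotype are crossed once, and the fit with the batch term draws its spread largely from other regions. Sequencing depth is unknown, a pileup mixes depth with enrichment, and a region without a call has no value, so weak regions were described by their calls.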

Other observations

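By the pattern of its strongest region within 10 kb, that at the start of Gm33424, the genes most like Nfil3 over the 6 libraries were Tmem220, Cnfn, Stil, Idh3g and Fbxw7, out of 11053 genes compared. Pearson r of log2 scaled pileup with the Nfil3 region was 0.998 for Tmem220, 0.994 for Cnfn, 0.992 for Stil, 0.990 for Idh3g and 0.985 for Fbxw7. These are the highest of many values over 6 points that share their libraries, and they are given as a description. At Tmem220 scaled pileup was 26.8 and 46.4 in DC, 24.5 and 36.5 in DE, and 25.4 and 37.1 in WT, higher in batch 2 in every genotype as at the Nfil3 region. Of the 7 Nfil3 regions, 2 were higher in batch 2 in all genotypes and 1 was higher in batch 1, against 23.3% and 25.1% of all regions called in all libraries.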
